A study of Mus musculus with 12 samples.

Results

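The genes described here are 35 genes of cholesterol synthesis, sensing, transport, efflux and turnover, picked by gene symbol from the 24100 genes of a bulk RNA-seq table of mouse entorhinal cortex (EC) neurons in primary culture. They were ordered by pathway step: 18 enzymes that build cholesterol, 5 genes that set the activity of the pathway's transcription factors, 3 carriers that move sterol inside the cell, 7 genes of efflux and lipoprotein handling, and 2 genes that esterify or hydroxylate cholesterol. Other genes of the pathway were not members, and some of them were described only through separate lists. EC tissue of C57BL/6J mice was dissected on embryonic day 17, and the cultures were grown in Neurobasal medium with B27 supplement, received an adeno-associated virus of serotype AAV1 at 7 days in vitro at 1e+10 viral genomes per ml, and were harvested 4 days later. Dek hairpin cultures carried a U6-driven short hairpin against Dek, which encodes a chromatin-binding nuclear protein, together with mCherry, and scrambled hairpin cultures carried the same kind of virus with a scrambled hairpin. Dek cDNA cultures carried mouse Dek followed by an internal ribosome entry site and mCherry under the neuronal hSyn1 promoter, and empty vector cultures carried mCherry with a WPRE element under hSyn1. Each of the 4 groups had 3 wells, and a single hairpin construct was directed at Dek. No source used here says whether wells came from separate dissections, so p-values measure the spread between wells.

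Cholesterol is built from acetyl-CoA through mevalonate, the isoprenoid diphosphates, squalene and lanosterol, and a series of membrane-bound enzymes turns lanosterol into cholesterol. The SREBP transcription factors drive most of these genes. When membranes hold enough sterol, SCAP and the INSIG proteins keep SREBP in the endoplasmic reticulum, and when sterol is low SREBP is cut and moves to the nucleus. The brain makes its own cholesterol, astrocytes hand it to neurons on apolipoprotein E particles, and neurons rid themselves of it largely through the hydroxylase CYP46A1, whose product also activates the liver X receptors (LXR) that switch on efflux genes.

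Libraries held 15677332 to 18930515 estimated counts in named genes. Levels are given as CPM, which are counts relative to the library total, with TMM factors over all 12 libraries that correct for differences in library composition. Dek itself was at 7.98, 6.65 and 8.62 CPM in Dek hairpin wells, against 35.3, 36.6 and 36.4 CPM in scrambled hairpin wells, a log2 fold change of −2.23 ± 0.10 (SE). It was at 156, 129 and 143 CPM in Dek cDNA wells, against 36.1, 38.8 and 41.1 CPM in empty vector wells, a log2 fold change of 1.89 ± 0.08. The 9 neuron markers summed to 6644 to 7653 CPM over the 12 libraries, the 12 astrocyte markers to 485 to 948 CPM, the 11 oligodendrocyte lineage markers to 93.4 to 282 CPM and the 8 microglia markers to 4.08 to 13.8 CPM, with the defining microglia markers P2ry12 and Tmem119 at 0 or below 0.2 CPM in every library.

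The first comparison asked what changed when Dek was silenced. After Dek silencing, 13 of the 35 members fell and 6 rose, and the remaining 16 did not pass the test. Those that fell were 9 synthesis enzymes, the transcription factor gene Srebf2, the sterol carriers Stard4 and Npc1, and Mylip, which encodes a ligase acting on lipoprotein receptors. Those that rose lay outside the synthesis chain: the SCAP escort gene Scap, the retention gene Insig2, the lysosomal carrier Npc2, the exporter Abcg1, the esterifying enzyme Soat1 and the hydroxylase Cyp46a1. A call was an adjusted p below 0.05 in edgeR's quasi-likelihood test over 14226 genes, and in that test 26.2% of all genes were called higher and 28.5% lower, so the share of members called lower (13 of 35) stands beside a broad change across the transcriptome. Of all calls, 47.9% were higher, and 59.9% were with library size scaling in place of TMM, which gave 12 members lower and 8 higher. The median log2 fold change over the members was −0.15, beside −0.0011 over all genes tested. The members' median was −0.05 with library size scaling (0.10 over all genes), −0.09 without Dek hairpin replicate 3 and −0.25 without Dek hairpin replicate 2. For the same 19 members, every Dek hairpin well lay on one side of every scrambled hairpin well in CPM (13 below and 6 above), which also held for 31.1% (below) and 30.8% (above) of all genes tested.

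**Figure D1:**
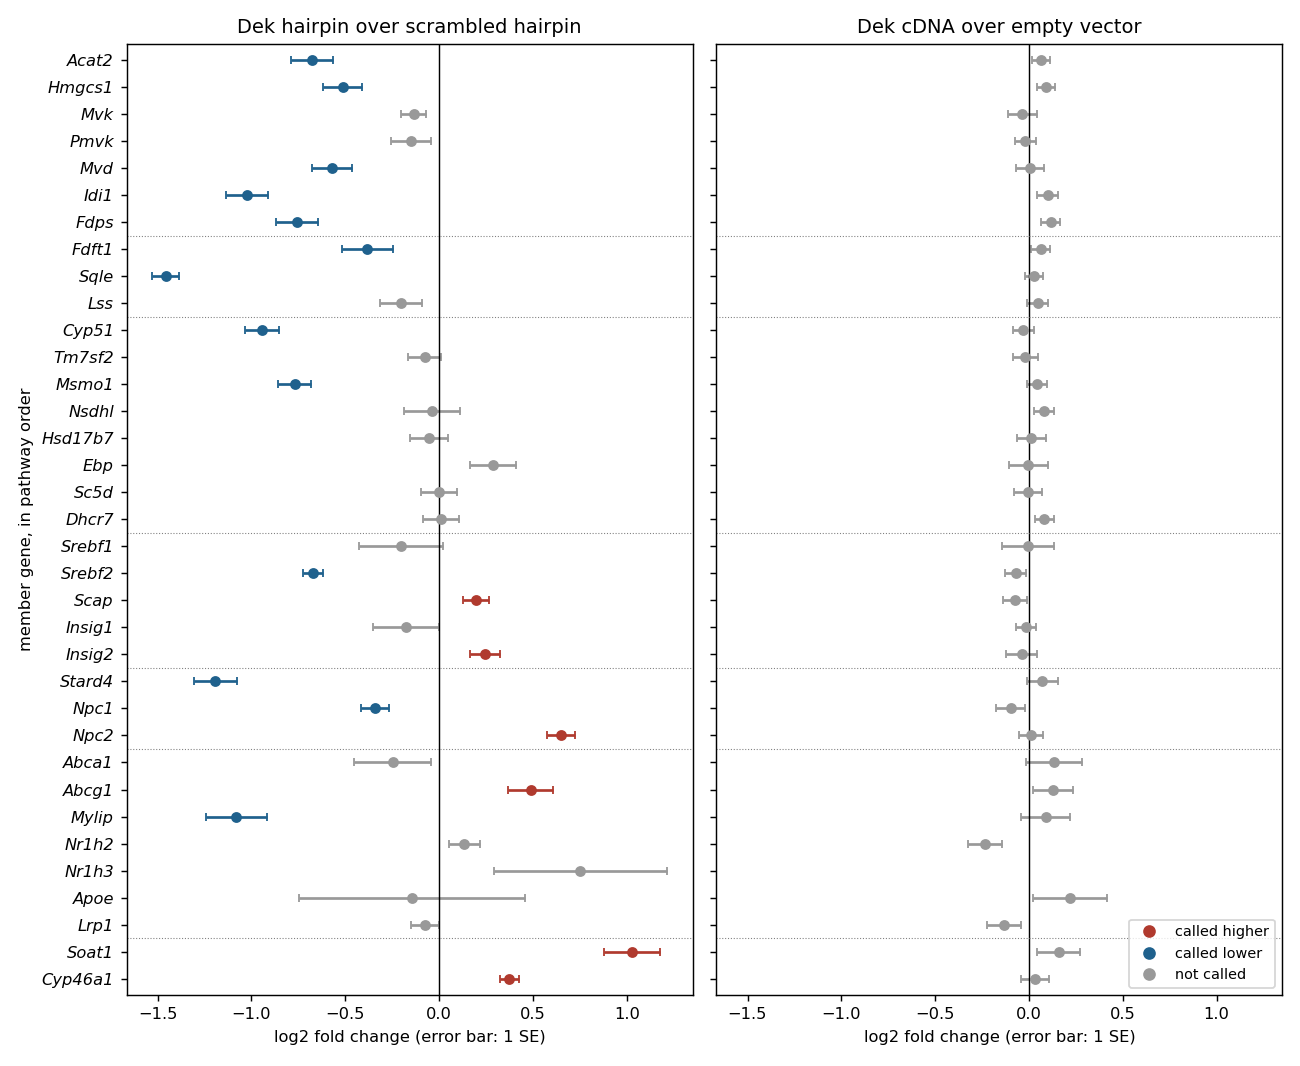
Log2 fold change (x axis, with 1 SE) of each member gene, in pathway order from the top, for Dek hairpin over scrambled hairpin (left) and Dek cDNA over empty vector (right), with called genes in colour and roles separated by dotted lines. On the left, 13 genes lie called to the left of 0, down to −1.46 for Sqle, and 6 to the right, up to 1.03 for Soat1; on the right no member was called and Nr1h3 was not tested.

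Among the 18 enzymes, 9 fell and none rose, beside 28.5% of all genes tested called lower and 26.2% higher. The enzymes' median log2 fold change was −0.29, beside −0.0011 over all genes tested. Of the 18 log2 fold changes, 16 were negative, and 12 were with library size scaling or without Dek hairpin replicate 3, where Tm7sf2, Nsdhl, Hsd17b7 and Sc5d, all close to 0, turned positive; without scrambled hairpin replicate 1, 14 were negative. The 7 enzymes of the mevalonate arm, which turn acetyl-CoA into farnesyl diphosphate, gave 5 of those falls. Acat2, the cytosolic thiolase that opens the pathway, was at 362, 340.1 and 259.9 CPM in Dek hairpin wells, against 534, 508 and 482 CPM in scrambled hairpin wells. All 3 silenced wells were below all 3 control wells, and the log2 fold change was −0.68 ± 0.11 (SE, edgeR adjusted p = 0.00127). Hmgcs1, the cytosolic HMG-CoA synthase and the most abundant member per length in scrambled hairpin wells, was at 1167, 1130.0 and 865 CPM with the Dek hairpin, against 1470.4, 1531 and 1467 CPM with the scrambled hairpin. The groups did not overlap, and the fall was −0.51 ± 0.10 on the log2 scale (edgeR adjusted p = 0.00339).

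Further along the same arm, Mvd, the decarboxylase that makes isopentenyl diphosphate, was at 150.1, 145 and 111 CPM in Dek hairpin wells, against 208, 207 and 182 CPM in scrambled hairpin wells (log2 fold change −0.57 ± 0.11). Idi1, the isomerase acting next, was at 164, 159 and 118 CPM with the Dek hairpin, against 298, 301 and 288 CPM with the scrambled hairpin. Idi1 was therefore 2.03-fold lower in silenced wells (log2 fold change −1.02 ± 0.11, edgeR adjusted p = 8.11e-05), with no overlap between groups. Fdps, farnesyl diphosphate synthase, was at 397, 374 and 284 CPM in Dek hairpin wells, against 609.5, 589.7 and 563 CPM in scrambled hairpin wells (−0.76 ± 0.11, edgeR adjusted p = 0.000715). The 2 kinases that act before Mvd overlapped between groups: the log2 fold change of mevalonate kinase, Mvk, was −0.13 ± 0.07 (edgeR adjusted p = 0.109), called without Dek hairpin replicate 2 (0.0337) and, at −0.28, when corrected for GC content and transcript length (0.00687), and that of phosphomevalonate kinase, Pmvk, was −0.15 ± 0.11 (0.268).

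The next 3 steps make and close the squalene chain, and they hold the member with the largest log2 fold change in size. Sqle (chr15:59315092-59331193, GRCm38.p6), squalene epoxidase, which performs the first oxygen-requiring step, was at 174, 174 and 145 CPM in Dek hairpin wells, against 449.6, 462 and 428 CPM in scrambled hairpin wells. The highest silenced well was far below the lowest control well, and Sqle was 2.75-fold lower (log2 fold change −1.46 ± 0.07, edgeR adjusted p = 2.09e-08). Fdft1, squalene synthase, was at 415, 383 and 280.0 CPM with the Dek hairpin, against 475, 455 and 459 CPM with the scrambled hairpin. Its groups did not overlap, but it passed narrowly (−0.38 ± 0.13, edgeR adjusted p = 0.0497), and the call was lost under 9 of the alternatives tried, with adjusted p up to 0.132 without scrambled hairpin replicate 1. Lss, lanosterol synthase, overlapped at 166, 163 and 120.2 CPM in Dek hairpin wells, against 177, 171 and 164 CPM in scrambled hairpin wells (−0.20 ± 0.11, edgeR adjusted p = 0.151).

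Of the 8 enzymes that carry lanosterol to cholesterol, only the early demethylation genes Cyp51 and Msmo1 were called, both lower. Over all genes tested, 28.5% were called lower and 26.2% higher. Cyp51, the demethylase acting on lanosterol, was at 224, 219 and 178 CPM in Dek hairpin wells, against 430.2, 381 and 369 CPM in scrambled hairpin wells, a log2 fold change of −0.94 ± 0.09 (edgeR adjusted p = 1.88e-05). Msmo1, the methylsterol oxidase, was at 187, 183 and 145 CPM in Dek hairpin wells, against 299, 294 and 275 CPM in scrambled hairpin wells (−0.77 ± 0.09, edgeR adjusted p = 4.61e-05). Neither gene's groups overlapped. The other 6 overlapped between groups: the reductase gene Tm7sf2 at −0.08 ± 0.09, the decarboxylating dehydrogenase gene Nsdhl at −0.04 ± 0.15, the keto-reductase gene Hsd17b7 at −0.05 ± 0.10, the desaturase gene Sc5d at −0.00089 ± 0.10, the final reductase gene Dhcr7 at 0.01 ± 0.10, and the isomerase gene Ebp at 0.29 ± 0.12 (edgeR adjusted p = 0.0666). Ebp was at 39.3, 33.5 and 28.6 CPM in Dek hairpin wells, against 31.3, 24.7 and 26.0 CPM in scrambled hairpin wells, with overlap. It was called higher under 6 of the alternatives tried (edgeR adjusted p 0.00572 to 0.048). Among these were library size scaling (0.0202) and leaving out scrambled hairpin replicate 1 or Dek hairpin replicate 3 (0.0185 and 0.0164).

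**Figure D2:**
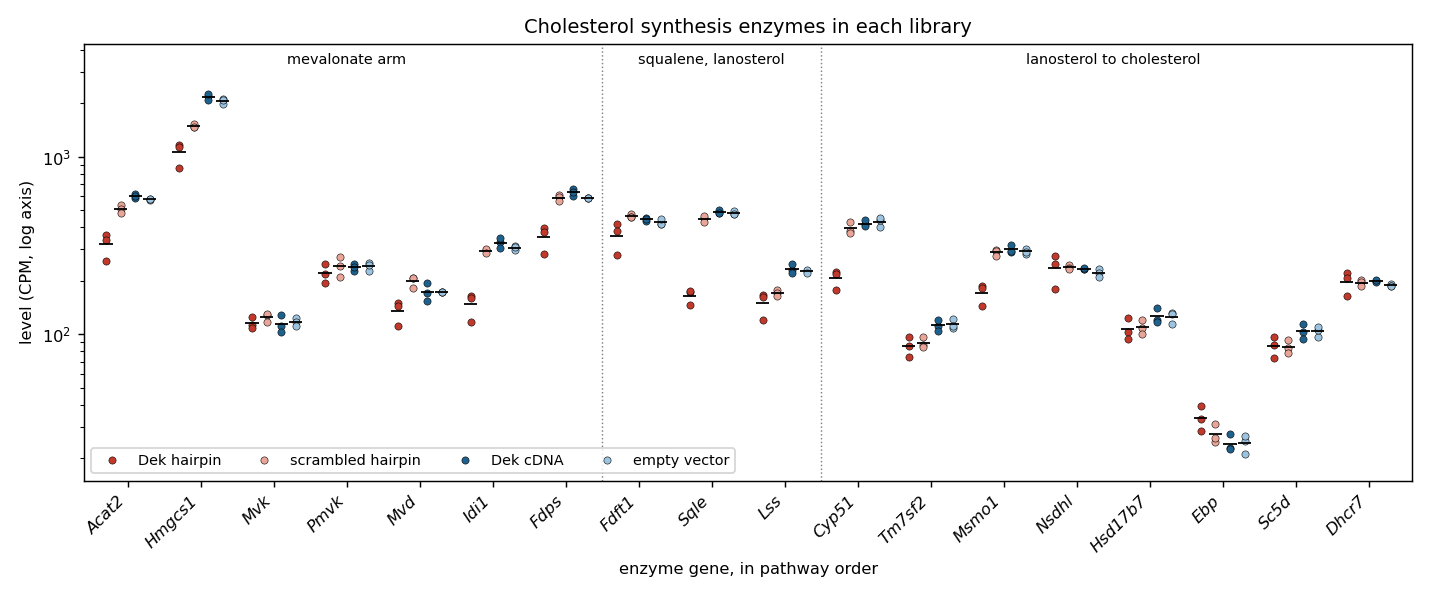
Level (CPM, log axis) of the 18 synthesis enzymes in each of the 12 libraries, in pathway order, with points for wells, a bar for the group mean and the 3 stretches of the pathway marked by dotted lines. The 3 Dek hairpin wells of Sqle (145 to 174 CPM) lie well below the 3 scrambled hairpin wells (428 to 462 CPM), while those of Dhcr7 (164 to 221 CPM) straddle them (186 to 201 CPM).

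In both hairpin groups the lowest levels of most enzymes fell in the same-numbered well. The enzymes' summed level was 4607, 4367 and 3446 CPM in Dek hairpin wells 1 to 3, against 6139, 6008 and 5711 CPM in scrambled hairpin wells. Well 3 held the lowest level of 17 of the 18 enzymes among the Dek hairpin wells and of 16 of the 18 among the scrambled hairpin wells. Wells 1, 2 and 3 held the lowest level of 5, 8 and 5 enzymes with Dek cDNA and of 12, 1 and 5 with the empty vector. The share of all genes lowest in each well was not counted, so the pattern is not shown to be particular to the enzymes. Deviations from the group mean correlated positively for the same-numbered pairs of hairpin wells 1, 2 and 3, at 0.404, 0.224 and 0.136. The correlations were taken on the log2 scale, across genes with a mean of at least 1 CPM. The pair of wells numbered 3 was thus the weakest, and Dek hairpin well 2 correlated slightly more with scrambled hairpin well 3 (0.241). The comparison of the hairpins was repeated with the replicate number as a block. With the block, 16 members were called lower and 7 higher, beside 31% and 29.6% of all genes. The added calls were Mvk (−0.13, edgeR adjusted p = 0.0359), Lss (−0.22, 0.014), the transcription factor gene Srebf1 (−0.22, 0.0265) and, higher, Ebp (0.29, 0.00572).

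Markers of several cell types were read in the same comparison, where 26.2% of all genes tested were called higher and 28.5% lower. Summed neuron markers were at 6644 to 6990 CPM in Dek hairpin wells, against 7397 to 7564 CPM in scrambled hairpin wells, with 5 of the 9 genes called lower and 2 higher. Summed oligodendrocyte lineage markers were at 176 to 282 CPM in Dek hairpin wells, against 93.4 to 152 CPM in scrambled hairpin wells, with 7 of 10 tested genes higher and 1, Mog, lower. Astrocyte markers, at 556 to 948 CPM in Dek hairpin wells and 582 to 890.2 CPM in scrambled hairpin wells, gave no call among 11 tested genes. Summed vascular markers were at 9.59 to 10.5 CPM in Dek hairpin wells, against 4.03 to 5.24 CPM in scrambled hairpin wells. Only 3 of the 6 vascular genes were tested (log2 fold changes −0.73 to 1.89, 2 positive and 1 negative), with Rgs5 called higher. Summed microglia markers were at 4.08 to 4.73 CPM in Dek hairpin wells, against 5.004 to 7.17 CPM in scrambled hairpin wells. Only 4 of the 8 microglia genes were tested (−1.6 to 0.58, 2 positive and 2 negative), with Aif1 called lower. The part of these cells in the enzyme levels was not tested, and in bulk RNA fewer cells of a type and less RNA per cell cannot be told apart.

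Promoters are shown for Hmgcs1, Idi1, Cyp51 and Srebf2, which were among the 8 members called lower that matched a promoter. Those of Acat2, Mvd, Msmo1 and Mylip, the other lower members with a match, are not shown. SREBP acts on sterol regulatory elements close to the start site, often beside NF-Y sites. RefSeq promoters on GRCm38.p6, from 250 bases before to 50 bases after each annotated start, matched 29 of the 35 members; Fdps, Fdft1, Sqle, Stard4, Npc1 and Abcg1 had no entry. Capitals mark the letters TCACNCCAC, a form of the sterol regulatory element, and CCAAT, the NF-Y motif, on either strand (so that ATTGG is CCAAT on the other strand). The Hmgcs1 window is chr13:119690101-119690400 on the plus strand, that of Idi1 chr13:8885356-8885655 on the plus strand, that of Cyp51 chr5:4104648-4104947 on the minus strand and that of Srebf2 chr15:82147019-82147318 on the plus strand.
Hmgcs1: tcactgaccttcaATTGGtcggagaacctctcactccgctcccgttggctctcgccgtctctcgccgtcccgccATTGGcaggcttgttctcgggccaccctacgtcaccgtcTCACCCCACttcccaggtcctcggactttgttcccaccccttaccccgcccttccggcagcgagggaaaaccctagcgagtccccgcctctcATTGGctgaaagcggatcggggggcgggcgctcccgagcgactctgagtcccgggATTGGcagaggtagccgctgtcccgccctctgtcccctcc
Idi1: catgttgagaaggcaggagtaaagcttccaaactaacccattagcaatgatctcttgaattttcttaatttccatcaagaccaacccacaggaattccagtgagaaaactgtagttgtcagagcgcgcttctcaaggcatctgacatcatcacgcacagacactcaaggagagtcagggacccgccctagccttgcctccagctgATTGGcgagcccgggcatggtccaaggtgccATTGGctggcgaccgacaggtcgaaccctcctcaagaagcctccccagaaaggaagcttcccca
Cyp51: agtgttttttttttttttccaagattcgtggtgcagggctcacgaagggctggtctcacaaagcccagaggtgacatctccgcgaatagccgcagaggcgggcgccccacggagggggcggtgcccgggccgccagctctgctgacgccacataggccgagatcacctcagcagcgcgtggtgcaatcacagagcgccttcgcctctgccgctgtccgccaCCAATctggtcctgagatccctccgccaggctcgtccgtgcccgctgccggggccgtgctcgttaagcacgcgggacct
Srebf2: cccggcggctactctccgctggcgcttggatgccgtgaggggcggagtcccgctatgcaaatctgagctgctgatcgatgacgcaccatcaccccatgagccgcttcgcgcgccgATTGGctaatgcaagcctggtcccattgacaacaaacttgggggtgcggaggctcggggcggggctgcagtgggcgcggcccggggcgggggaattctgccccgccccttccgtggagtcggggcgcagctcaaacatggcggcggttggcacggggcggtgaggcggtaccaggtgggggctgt

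The full TCACNCCAC run stood in 1 of the 29 members, Hmgcs1, starting at −137 from the annotated start, beside 1.44% of all genes with a promoter entry. None of the marked runs overlapped. CCAAT was in 22 of the 29 members (75.9%), beside 41.1% of all genes. It was in 7 of 8 members called lower that had an entry, all but Acat2. Of the others, it was in 4 of 5 called higher and in 11 of 16 not called. The E-box CACGTG was in 20.7% of members and 8.09% of genes, and the GC box GGGCGG in 86.2% and 38.2%. A match of letters is not a binding site, and these windows are short.

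Of the 5 genes that control SREBP, Srebf2 fell and Insig2 and Scap rose, beside 28.5% of all genes called lower and 26.2% higher. Srebf2, which encodes the SREBP form devoted mainly to cholesterol genes, was at 234, 241 and 218 CPM in Dek hairpin wells, against 350.0, 376 and 367 CPM in scrambled hairpin wells. The groups lay far apart relative to their spread (log2 fold change −0.67 ± 0.05, edgeR adjusted p = 9.64e-07), so that silenced wells held 37.2% less Srebf2 transcript. Insig2, whose protein retains the SCAP complex, was at 46.9, 48.1 and 41.5 CPM with the Dek hairpin, against 39.2, 39.7 and 35.2 CPM with the scrambled hairpin (0.24 ± 0.08, edgeR adjusted p = 0.0224). Scap was at 119.6, 139 and 138 CPM in Dek hairpin wells, against 108, 118 and 117 CPM in scrambled hairpin wells (0.20 ± 0.07, edgeR adjusted p = 0.0311). Both rises were small, and both calls were lost when single libraries were left out: Scap without scrambled hairpin replicates 1 or 2 or Dek hairpin replicates 2 or 3 (adjusted p 0.0562 to 0.123), and Insig2 without scrambled hairpin replicate 3 or Dek hairpin replicate 2 (0.0878 and 0.0939).

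Insig1, the INSIG form that is itself an SREBP target, was at 299, 291 and 192 CPM in Dek hairpin wells, against 310.4, 289.6 and 275 CPM in scrambled hairpin wells. The groups overlapped, and the third Dek hairpin well was the low one (−0.18 ± 0.18, edgeR adjusted p = 0.434). Srebf1, the form tied to fatty acid genes, was at 31.7, 54.2 and 48.0 CPM in Dek hairpin wells, against 42.7, 52.9 and 57.6 CPM in scrambled hairpin wells, again overlapping (−0.20 ± 0.22, edgeR adjusted p = 0.485 without the block).

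The 3 carriers all passed the test, in different directions, beside 26.2% of all genes called higher and 28.5% lower. Stard4, a soluble protein that shuttles sterol between membranes, was at 29.2, 33.1 and 22.8 CPM in Dek hairpin wells, against 62.3, 66.7 and 63.2 CPM in scrambled hairpin wells. It was 2.28-fold lower with no overlap (log2 fold change −1.19 ± 0.11, edgeR adjusted p = 1.08e-05). Npc1 and Npc2 encode the membrane and the soluble partner that pass cholesterol out of the lysosome. Npc1 was at 28.5, 28.2 and 26.8 CPM with the Dek hairpin, against 33.3, 34.7 and 36.5 CPM with the scrambled hairpin (−0.34 ± 0.07, edgeR adjusted p = 0.00215). Npc2 was at 248, 237 and 222 CPM in Dek hairpin wells, against 166, 145 and 135 CPM in scrambled hairpin wells (0.65 ± 0.07, edgeR adjusted p = 1.61e-05). The partners thus moved in opposite directions, each without overlap between the groups.

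**Figure D3:**
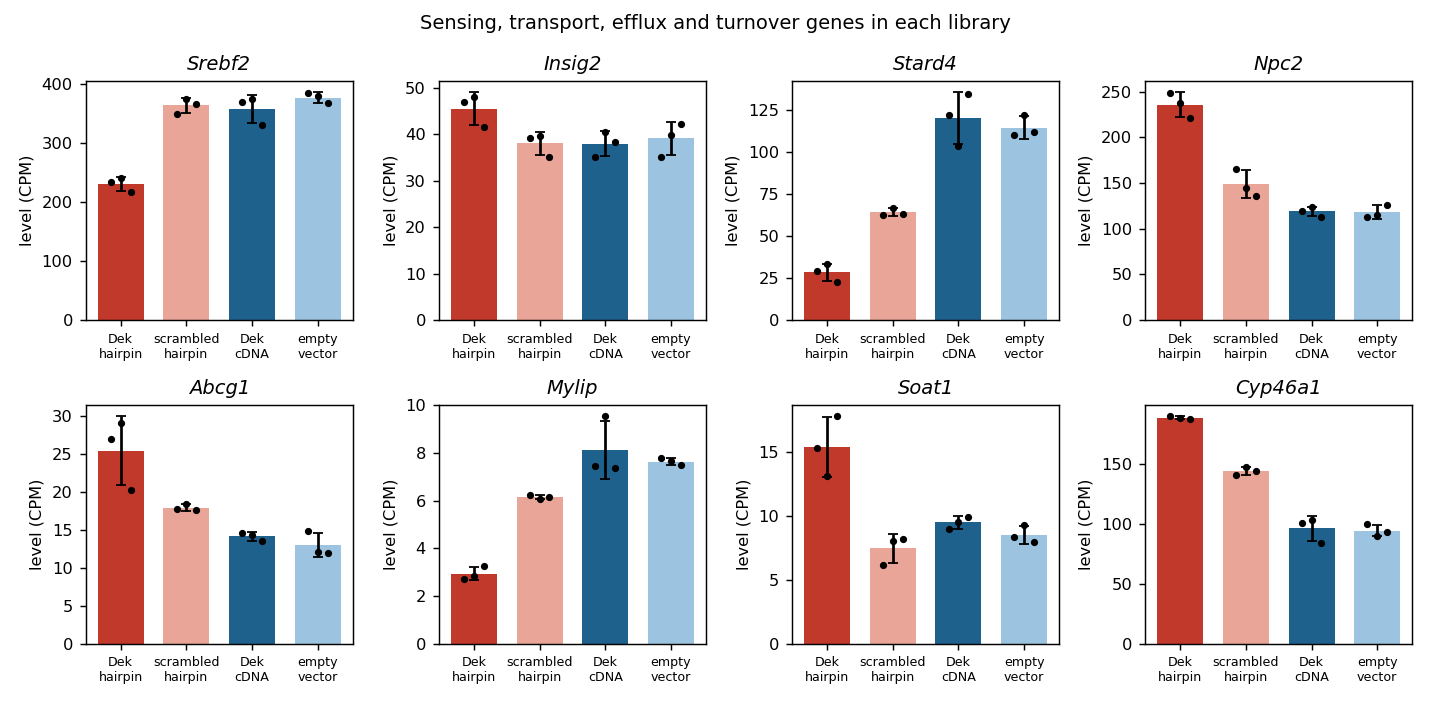
Level (CPM) of 8 genes of sensing, transport, efflux and turnover, as bars for the group mean, error bars for the SD and points for the 3 wells of each group. Srebf2, Stard4 and Mylip are lower in Dek hairpin than in scrambled hairpin wells, while Insig2, Npc2, Abcg1, Soat1 and Cyp46a1 are higher, and Dek cDNA wells stay near empty vector wells.

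Genes of efflux, LXR signalling and lipoprotein handling were mixed, with 1 called higher, 1 lower and 5 not called. Beside them, 26.2% of all genes tested were called higher and 28.5% lower. Abcg1, which exports cholesterol to lipoprotein particles, was at 27.0, 29.0 and 20.3 CPM in Dek hairpin wells, against 17.8, 18.4 and 17.6 CPM in scrambled hairpin wells (0.49 ± 0.12, edgeR adjusted p = 0.0051). Abca1, the exporter that loads lipid-poor apolipoproteins, overlapped at 14.9, 20.5 and 17.3 CPM in Dek hairpin wells, against 15.2, 20.6 and 26.4 CPM in scrambled hairpin wells (−0.25 ± 0.21, edgeR adjusted p = 0.342), and it was called lower without scrambled hairpin replicate 1 (−0.43, edgeR adjusted p = 0.0341). Both are textbook LXR targets, as is Mylip, whose product marks lipoprotein receptors for degradation. Mylip was at 2.72, 2.83 and 3.24 CPM with the Dek hairpin, against 6.24, 6.08 and 6.16 CPM with the scrambled hairpin. Although low, it was tightly grouped and 2.11-fold lower (−1.08 ± 0.16, edgeR adjusted p = 0.000129).

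The LXR genes themselves were not called. Nr1h2 was at 28.4, 31.3 and 32.7 CPM in Dek hairpin wells, against 28.3, 28.7 and 26.4 CPM in scrambled hairpin wells (0.13 ± 0.08, edgeR adjusted p = 0.192). Nr1h3 was below 1 CPM in every library, at 0.479 to 0.990 CPM in Dek hairpin wells, against 0.238 to 0.651 CPM in scrambled hairpin wells (0.75 ± 0.46, edgeR adjusted p = 0.188). Lrp1, a large endocytic receptor that binds apolipoprotein E, was at 182, 206 and 198 CPM in Dek hairpin wells, against 182, 209.6 and 219.6 CPM in scrambled hairpin wells (−0.08 ± 0.08).

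Apoe, the apolipoprotein supplied mainly by glia, had the largest SE of the 35 members in this comparison. It was at 160.3, 469 and 605 CPM in Dek hairpin wells, against 286, 493 and 576 CPM in scrambled hairpin wells, so the groups overlapped widely (−0.14 ± 0.60, edgeR adjusted p = 0.863). The low well had the number 1 in both groups, and those wells were also the low ones for the summed astrocyte markers, at 556, 927 and 948 CPM with the Dek hairpin and 582, 811 and 890.2 CPM with the scrambled hairpin. Srebf1 was lowest in the same wells. The part of astrocyte content in these values was not tested.

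**Figure D4:**
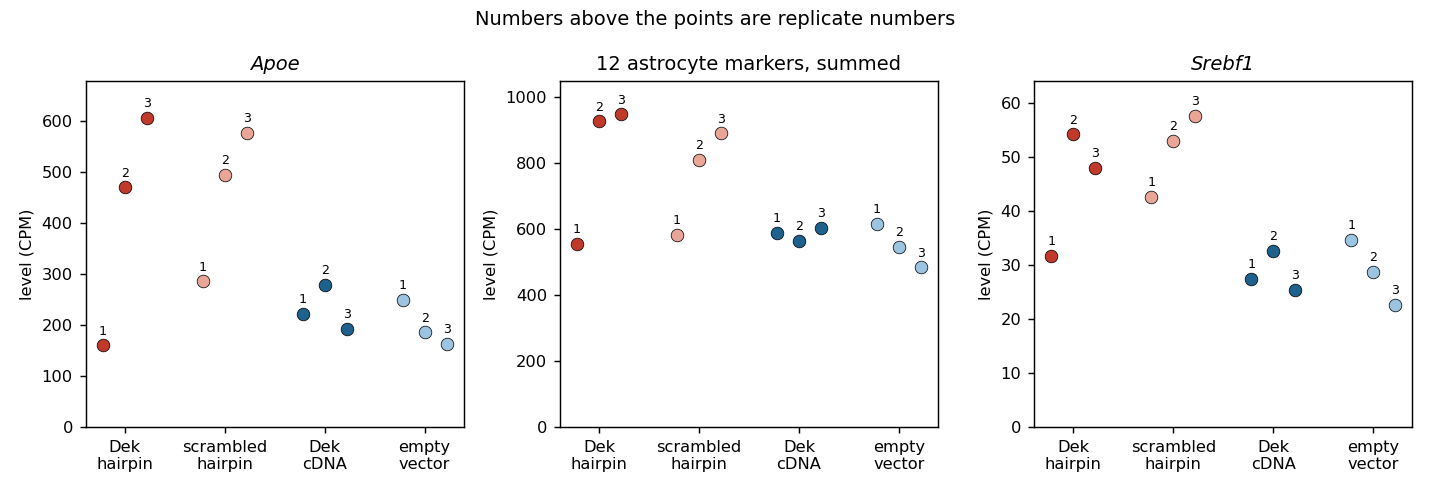
Level (CPM) of Apoe, of 12 summed astrocyte markers and of Srebf1 in each well, with the replicate number above each point. Wells numbered 1 of the Dek hairpin and scrambled hairpin groups are the lowest of their group in all 3 panels, at 160.3 and 286 CPM for Apoe.

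Both genes that store or dispose of cholesterol rose, beside 26.2% of all genes called higher. Soat1, which esterifies it for storage, was at 15.3, 13.1 and 17.8 CPM in Dek hairpin wells, against 6.19, 8.04 and 8.23 CPM in scrambled hairpin wells, 2.04-fold higher without overlap (log2 fold change 1.03 ± 0.15, edgeR adjusted p = 0.000112). Cyp46a1, the neuronal hydroxylase, was at 189.9, 188 and 188 CPM with the Dek hairpin, against 141, 147 and 144 CPM with the scrambled hairpin. The spread among its silenced wells was 1.06 CPM (SD, n = 3), and the rise was 0.37 ± 0.05 on the log2 scale (edgeR adjusted p = 5.1e-05).

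The second comparison asked what changed when Dek was raised. No member was called among 34 tested (Nr1h3 was not tested), by edgeR or by DESeq2 or limma-voom, and over 14083 genes 0.0071% were called higher, which was Dek alone, and 0% lower. Of the members, 1 was higher and 1 lower at an unadjusted p below 0.05, beside 2.9% and 3.69% of all genes. Fdps was at 600.2, 661 and 633 CPM in Dek cDNA wells, against 581, 585 and 587 CPM in empty vector wells (0.12 ± 0.05, unadjusted p = 0.0376 and adjusted p = 0.717 in edgeR). Nr1h2 was at 22.3, 23.2 and 18.8 CPM in Dek cDNA wells, against 26.5, 25.2 and 24.1 CPM in empty vector wells (−0.23 ± 0.09, unadjusted p = 0.0237 and adjusted p = 0.694 in edgeR). Both were non-overlapping by small margins, and so were Acat2 and Dhcr7, each higher in every Dek cDNA well. The share of all genes without overlap was not counted for this comparison.

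Genes called after silencing were close to their control after Dek cDNA. Sqle was at 482, 498 and 480.0 CPM in Dek cDNA wells, against 475, 491 and 473 CPM in empty vector wells (0.02 ± 0.05), Idi1 at 330.5, 306 and 347 CPM in Dek cDNA wells, against 298, 313 and 310.0 CPM in empty vector wells (0.10 ± 0.06), and Srebf2 at 369, 375 and 330.3 CPM in Dek cDNA wells, against 385, 379 and 368 CPM in empty vector wells (−0.07 ± 0.06). None of these was called. Stard4 had a log2 fold change of 0.07 ± 0.08, Mylip of 0.09 ± 0.13, Cyp51 of −0.03 ± 0.06, Msmo1 of 0.04 ± 0.05, Acat2 of 0.06 ± 0.05, Cyp46a1 of 0.03 ± 0.08, Npc2 of 0.01 ± 0.06 and Soat1 of 0.16 ± 0.11. The median over the 34 members was 0.02, beside 0.0018 over all genes tested.

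The difference of the responses to silencing and to overexpression was tested directly, as the Dek hairpin change minus the Dek cDNA change in a fit of all 12 libraries. This difference includes the same hairpin wells as the first comparison, so calls shared by both are not separate support. It was negative and called for 12 members and positive and called for 5, beside 22.7% and 20.4% of 14598 genes. The 9 enzymes that fell with the Dek hairpin were all among the 12, with Sqle at −1.46 ± 0.09, Idi1 at −1.10 ± 0.13 and Cyp51 at −0.89 ± 0.11, together with Srebf2 (−0.58 ± 0.08), Stard4 (−1.24 ± 0.16) and Mylip (−1.15 ± 0.20). The 5 positive ones were Scap, Npc2, Soat1, Cyp46a1 and Nr1h2, for which the difference was 0.39 ± 0.12 (edgeR adjusted p = 0.0167). For Insig2 (0.30 ± 0.12, edgeR adjusted p = 0.0503), Npc1 (−0.22 ± 0.10, 0.0847) and Abcg1 (0.38 ± 0.17, 0.081), called with the Dek hairpin, the difference did not pass, but it did under 7 alternatives for Insig2 (adjusted p 0.0133 to 0.0338, among them without Dek hairpin replicate 3, Dek cDNA replicate 2 or empty vector replicate 1), 3 for Abcg1 (0.00672 to 0.0486, among them without Dek hairpin replicate 3) and 1 for Npc1 (0.0416, without Dek cDNA replicate 2). The differences of Scap and Fdft1 lost their call under 7 alternatives each (adjusted p 0.0548 to 0.08 and 0.0503 to 0.0687). Among these were single libraries left out, namely Dek hairpin 2 or 3, scrambled hairpin 1, Dek cDNA 3 or empty vector 1 or 2 for Scap, and scrambled hairpin 1 or 3, Dek cDNA 2 or 3 or empty vector 1 or 2 for Fdft1. With correction for GC content and transcript length, those of Nr1h2 (0.15, adjusted p = 0.209) and Cyp46a1 (0.17, adjusted p = 0.0667) lost theirs.

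The control viruses differ in promoter, insert and experiment, and these cannot be told apart. Between them, 6 members were called higher with the scrambled hairpin than with the empty vector and 7 lower, beside 21.2% and 21.8% of 14090 genes. Stard4 was at 62.3, 66.7 and 63.2 CPM in scrambled hairpin wells, against 109.6, 122 and 111 CPM in empty vector wells (−0.84 ± 0.05, edgeR adjusted p = 1.88e-07), and Hmgcs1 was at 1470.4, 1531 and 1467 CPM in scrambled hairpin wells, against 1983, 2097 and 2069.9 CPM in empty vector wells (−0.46 ± 0.04). For comparison, the log2 fold changes of Stard4 and Hmgcs1 between the hairpins were −1.19 and −0.51. Cyp46a1 was higher with the scrambled hairpin, at 141, 147 and 144 CPM in scrambled hairpin wells, against 99.7, 90.3 and 93.1 CPM in empty vector wells (0.61 ± 0.05, edgeR adjusted p = 9.24e-07), and so were Srebf1 (0.83 ± 0.18), Abcg1 (0.46 ± 0.10), Npc2 (0.33 ± 0.07), Mvd (0.20 ± 0.05) and Fdft1 (0.12 ± 0.04). The other lower ones were Lss (−0.41 ± 0.04), Tm7sf2 (−0.35 ± 0.06), Sc5d (−0.30 ± 0.07), Acat2 (−0.18 ± 0.04) and Sqle (−0.10 ± 0.04). For Cyp46a1, Srebf1, Lss, Tm7sf2 and Sc5d, the control viruses differed more in size than the hairpins did. For the other members called here they differed less, narrowly so for Abcg1. The small changes of Sqle and Fdft1 lost their call under 7 alternatives each (adjusted p up to 0.214 and 0.393), among them without scrambled hairpin replicate 3 or any single empty vector replicate for Sqle, and without any single scrambled hairpin replicate or empty vector replicate 1 or 2 for Fdft1. Those of Acat2 and Mvd lost theirs in a fit of all 12 libraries (0.127 and 0.137).

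In contrast, Idi1 (−0.05 ± 0.04), Fdps (0.01 ± 0.04), Msmo1 (−0.02 ± 0.04) and Srebf2 (−0.05 ± 0.04) were within 0.06 of 0 between the control viruses. Corrected for GC content and transcript length, Fdps was at −0.21 and called lower, Mvd was at −0.0008 and no longer called, and Sc5d was at −0.10 and no longer called (edgeR adjusted p = 0.276). Apoe was at 286, 493 and 576 CPM in scrambled hairpin wells, against 248, 186 and 164 CPM in empty vector wells (1.18 ± 0.34, edgeR adjusted p = 0.0521). DESeq2 called it (adjusted p = 0.00184), as did edgeR without scrambled hairpin replicate 1 (adjusted p = 0.017). The summed astrocyte markers were at 582 to 890.2 CPM in scrambled hairpin wells, against 485 to 617 CPM in empty vector wells.

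The Dek hairpin wells of the first comparison were also set against the empty vector, and 16 members were called lower in Dek hairpin wells and 8 higher, beside 33.4% and 34% of 14286 genes. The largest were Stard4 (−2.01 ± 0.11), Sqle (−1.54 ± 0.07), Mylip (−1.37 ± 0.15), Idi1 (−1.06 ± 0.11) and Cyp51 (−1.05 ± 0.08) among the lower, and Cyp46a1 (1.00 ± 0.06), Npc2 (1.00 ± 0.06) and Abcg1 (0.97 ± 0.14) among the higher. Apoe, at 1.05 on the log2 scale in this comparison, was not called (edgeR adjusted p = 0.17), and was at 1.42 and called without Dek hairpin replicate 1 (edgeR adjusted p = 0.00943). Promoter, insert and experiment differ in this comparison too.

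Per length of transcript, the members spanned a wide range. In scrambled hairpin wells the highest mean levels were 430.0 CPM per kb for Hmgcs1, 425 for Fdps, 321 for Apoe and 226 for Acat2, and the lowest were 0.894 for Soat1 and 0.219 for Nr1h3. In Dek hairpin wells the corresponding mean levels were 304 CPM per kb for Hmgcs1, 254 for Fdps, 292 for Apoe, 142 for Acat2, 1.84 for Soat1 and 0.381 for Nr1h3, where the Apoe mean rests on wells at 160.3, 469 and 605 CPM.

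Neighbouring pathways were read from separate lists, whose counts with the Dek hairpin stand beside the 26.2% of all genes called higher and 28.5% called lower; no list is called different from them. Among 16 genes that use isoprenoids made before squalene, 5 rose and 5 fell with the Dek hairpin, and the median log2 fold change was 0.03; Fnta (−0.91 ± 0.07) and Fntb (−0.46 ± 0.08), the subunits of protein farnesyltransferase, were among those that fell, and Coq2 (0.31 ± 0.06), of coenzyme Q synthesis, among those that rose. Among 14 fatty acid genes of the SREBP pathway, 3 fell (Acly, at −0.61 ± 0.07, makes cytosolic acetyl-CoA; Acaca, at −0.31 ± 0.06, makes malonyl-CoA; Lpin1 was at −0.59 ± 0.11) and 2 rose (Elovl5, a fatty acid elongase, at 0.67 ± 0.06, and Acss2, an acetyl-CoA synthetase, at 0.47 ± 0.11). Their median was −0.13, beside −0.29 for the 18 synthesis enzymes of cholesterol.

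Of 14 genes for SREBP processing and sterol-dependent degradation, 6 fell and 2 rose (median −0.07). Mbtps2, the protease that makes the second cut in SREBP, fell by 0.61 on the log2 scale (SE 0.08), and Ube2g2, a ubiquitin-conjugating enzyme of the endoplasmic reticulum, rose by 0.96 ± 0.07. Of 27 tested receptor and transport genes, 8 rose and 6 fell (median 0.09), with the apolipoprotein E receptor gene Lrp8 at −1.40 ± 0.06, the exporter gene Abcg4 at 0.69 ± 0.06 and the lysosomal lipase gene Lipa at 0.73 ± 0.09. Of 5 tested oxysterol enzymes, Cyp39a1, which acts on the product of CYP46A1, rose by 1.10 ± 0.22. None of the genes on these 5 lists was called with Dek cDNA.

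The letters AAGAGGA are a run of 7 bases singled out in earlier work on these data after all such runs had been compared. They occurred in the annotated 3′ untranslated region of 4 of the 35 members (11.4%), beside 15.95% of 13428 genes tested. These were 3 of the 13 members called lower (Fdft1, Sqle and Cyp51), none of the 6 called higher and 1 of the 16 not called (Sc5d). The split by call was not tested.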

How the data were processed

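RNA was sequenced from 12 wells of transduced mouse EC primary neurons, 3 in each of 4 groups set by the sample titles, from 200 ng of RNA each with a TruSeq kit. The authors deposited 1 table of estimated counts per gene (Salmon, mouse build mm10; annotation and versions not given in the sources used here), with no normalization; 38.6% of its values are not whole, and none of its columns belongs to other samples. The 9 genes without a symbol (0.0143% of counts) were left out of library sizes and tests. Estimated counts were rounded to whole numbers, filtered with filterByExpr and TMM-scaled, and tested in edgeR 4.0.16 (R 4.3.3) by robust quasi-likelihood F tests within each pair of groups, without covariates, with Benjamini-Hochberg adjustment over all genes tested and a threshold of 0.05. SEs are the log2 fold change divided by the square root of F. The difference of responses was a contrast in 1 fit of all 12 libraries. The study's methods compared groups in DESeq2, which was an alternative here (version 1.42.0), with limma-voom (limma 3.58.1), other scaling, other count filters, all libraries in 1 fit, a replicate block, leaving out each replicate, and, chosen after seeing the data, correction for GC and length. Fits were tested on simulated data.

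The members and lists were chosen with earlier results of these data known. The rule for named genes took every member, Dek, and up to 4 genes per direction with the smallest adjusted p from each list. Same-numbered wells of the Dek hairpin and scrambled hairpin groups deviated together (correlations across genes 0.404, 0.224 and 0.136, all above 0.1), although Dek hairpin well 2 correlated at 0.241 with scrambled hairpin well 3, and those of the other pairs did not; the pairing comes from the data, since no label states it. Lengths and 3′ untranslated regions are from GENCODE vM21 (longest transcript) and promoters from RefSeq, both on GRCm38.p6; promoter sequences were matched by gene ID.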

Additional observations from a re-analysis of the deposited data

How the results depend on the processing

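The counts of members called stayed within 1.5 times of those reported in every comparison and under every alternative tried. With single replicates left out, members called lower with the Dek hairpin against the scrambled hairpin numbered 12 to 13 and those called higher 4 to 6. Between the control viruses they numbered 6 to 9 and 5 to 8, for the Dek hairpin against the empty vector 15 to 18 and 7 to 10, and for the difference of responses 11 to 12 and 4 to 6; with Dek cDNA there were 0. Among all called genes, the share called higher was 47.9% with TMM and 59.9% with library size scaling for the Dek hairpin against the scrambled hairpin, and 47.3% and 57.9% for the difference of responses; library size scaling gave 8 members higher and 12 lower in the first. The replicate block gave 7 higher and 16 lower there, and it changed no call with Dek cDNA. In the other pairs of groups, same-numbered wells did not deviate together, and no label states a pairing. There the block gave 5 higher and 6 lower between the control viruses, and 7 and 15 for the Dek hairpin against the empty vector. For the difference of responses, which includes both hairpin groups, the block was set within each experiment and gave 6 and 12. Correction for GC content and transcript length, chosen after seeing the data, turned the direction of Hsd17b7 (0.044), Sc5d (0.040), Nr1h2 (−0.058) and Lrp1 (0.21, called) for the Dek hairpin against the empty vector, and of Mvd (−0.0008) and Fdps (−0.21, called) between the control viruses; the cause was not tested. For the Dek hairpin against the scrambled hairpin, no called member turned direction, though members near 0 without a call did, and 496 of 524 member values kept their side of the threshold, with 15 losing a call and 13 gaining one.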
